A study of Saccharomyces cerevisiae with 142 samples.

Results

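The comparison described here set budding yeast cells whose CDC20 gene had been replaced, with CDC20 placed under a galactose promoter, against wild-type cells. The labelled times were taken to precede the first mitosis, when neither strain should yet need the protein. That premise was not tested, and mitotic genes were already higher in cdc20 on these arrays. The members were chosen by label alone: the cdc20 arrays at 40, 60 and 80 min of each of 2 time courses, and the wild-type arrays from 46 to 86 min, which are 46, 62 and 78 min of the first course and 54, 70 and 86 min of the second. These are 12 of the 142 arrays of the series, which followed transcripts on Affymetrix arrays through 9 time courses of 6 groups. All these cells were MATa haploids of the BF264-15DU background, collected as G1 cells by elutriation (a size separation of a growing culture) and followed at 30 °C in rich dextrose medium with 1 M sorbitol. The wild type carried bar1. The cdc20 strain carried bar1, cdc20::LEU2, a galactose-promoter CDC20 marked with ADE2, and CFP-TUB1 (a fluorescent tubulin) marked with URA3. A cyclin mutant that lacks its own CLB1 to CLB6 and carries GAL1-CLB1 is used as a further group at 46 to 86 min, with 6 arrays in 2 courses. The sugar in which the cultures were grown before elutriation was not given in the sources used here, and the labels mark these arrays as taken from earlier studies without saying which array came from which, so strain and source study cannot be told apart.

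Cdc20 activates the anaphase-promoting complex, the ubiquitin ligase that destroys securin and mitotic cyclins, and cells without it stop in metaphase. With CDC20 under a galactose promoter, the gene is transcribed in galactose and shut off in dextrose, so such a strain is kept alive on galactose and switched to dextrose for an experiment. Galactose genes such as GAL1 and GAL10 are induced by galactose and repressed by glucose, and the markers used to build a strain restore steps of leucine, adenine or uracil synthesis. A comparison at these labelled times therefore reads the construct, its markers, the sugar history and the position in the cell cycle together.

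Values are log2 of the deposited probe-set intensities, and a time course, not an array, was the replicate. The 3 arrays of a course were averaged, and differences were tested over all 5449 genes with limma and Benjamini-Hochberg adjustment, with 2 courses per group; errors are standard errors of the difference. Nothing in the labels says whether the 2 courses were separate cultures, so the p-values measure the spread between these courses only. A gene is called when its adjusted p is under 0.05, and a difference of 1 on the log2 scale is 2-fold. The columns of the second wild-type course sat 1 row below their probe sets: as deposited they correlated with the first course at r = 0.0461 across probe sets, and moved up by 1 row at r = 0.996, and they are used moved up.

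In this window the strains differed widely. Of the 5449 genes, 2851 were called (52.3%), of which 1708 were higher in cdc20 (31.3%) and 1143 lower (21.0%). At least 2-fold differences among called genes numbered 611 (11.2%), with 312 higher (5.73%) and 299 lower (5.49%). In 1799 genes (33.0%) the arrays of the strains did not overlap, with all 6 cdc20 arrays above in 1120 (20.6%) and below in 679 (12.5%), and 1695 of them were also called (31.1%). Without the first wild-type course 1797 genes were called, and without the second 1705. The median absolute difference between the strains was 0.42, whereas the 2 wild-type courses differed by a median of 0.13 and the 2 cdc20 courses by 0.17. The split between higher and lower depends on the scale: centring each array on its median moved the median gene by 0.13, and the calls then split into 1254 higher and 1467 lower, with 180 higher and 421 lower among the 2-fold calls. Quantile normalization gave 1460 higher and 1348 lower, with 208 and 344 at 2-fold, and removing the trend on coding length gave 191 and 326 at 2-fold. Directions below are therefore read beside the median of all genes, which was 0.10. List counts below are read beside the 31.3% higher and 21.0% lower among all genes.

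**Figure D1:**
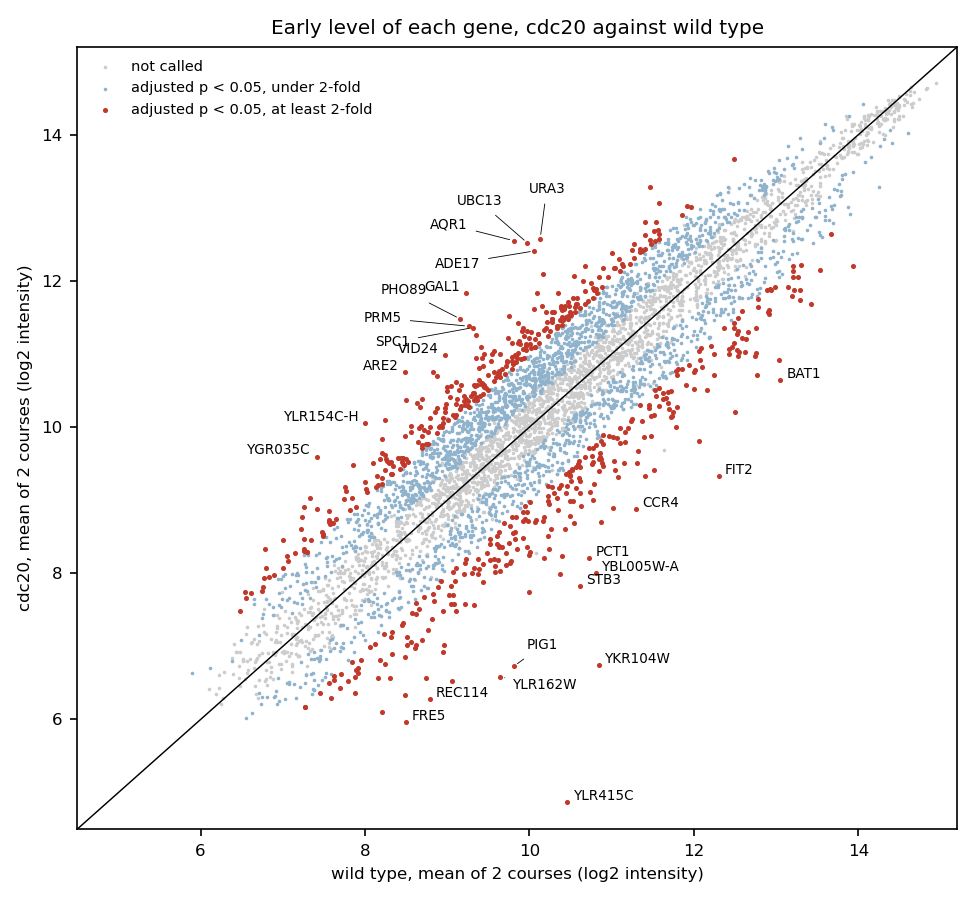
Each point is 1 of the 5449 genes, with the wild-type early level on the x axis and the cdc20 early level on the y axis, both in log2 intensity as the mean of 2 courses; colours mark calls and the line marks equal levels. The 12 genes farthest above and below among called genes with no overlap of arrays are named, and YLR415C stands apart at 4.87 in cdc20.

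Several measures read from the arrays moved with the strain, and their part in the results was not tested. The 3′ probe set of TDH1, a glycolytic control gene, exceeded its 5′ probe set by 2.98 and 2.33 in the 2 cdc20 courses and by 1.99 and 2.00 in the wild-type courses (log2), and within the window it went from 2.13 to 3.70 in the first cdc20 course and from 1.21 to 3.38 in the second. TDH1's 5′ set fell across the window, from 10.55 to 8.67 and from 12.26 to 9.30 in the cdc20 courses. Whether its excess followed the arrays or the transcript was not tested. The same excess for ACT1 was 0.88 and 0.69 in cdc20 against 0.47 and 0.44 in wild type. For SRB4 it was 3.75 and 3.92 against 2.55 and 2.72. That for RIP1 was smaller in cdc20, at −0.01 and −0.04 against 0.29 and 0.24. WBP1's was also smaller, at 1.28 and 1.24 against 1.56 and 1.35. For SPT15 the courses overlapped, at 1.60 and 1.46 against 1.51 and 1.31. Differences also ran with coding length: the median difference was 0.34 in the 1366 shortest genes (51 to 756 bases) and −0.08 in the 1361 longest (1902 to 14733 bases), whereas the cyclin mutant differed from wild type by 0.03 and 0.07 in those groups. Of 63 control probe sets with no gene name (17 tags and 46 reporters), 6 were at least 2-fold higher and 7 at least 2-fold lower in cdc20, against 1 and 0 in the cyclin mutant. By class, 1 tag and 5 reporters were higher, and 3 tags and 4 reporters lower. Reporters were not all without signal: 1 of them read 12.85 and 12.78 in the wild-type courses and 12.93 and 12.91 in cdc20. Ribosomal RNA control probe sets differed too. Against wild type, cdc20 was higher by 2.60 (25S middle), 2.34 (25S 3′), 0.94 (25S 5′), 1.81 (18S 3′) and 0.76 (18S 5′). For 5.8S it differed by −0.61. The cyclin mutant differed from wild type by 0.57, 0.01, 0.36, 0.32, −0.79 and −0.79 in the same order. With TDH1's excess as a covariate, 1259 genes were called. That excess was larger in both cdc20 courses than in every other course (1.69 to 2.04), so the covariate overlapped with the strain. The fit of 6 courses was left with 2 residual degrees of freedom. Calls lost with the covariate, here and below, therefore do not separate this measure from the strain.

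**Figure D2:**
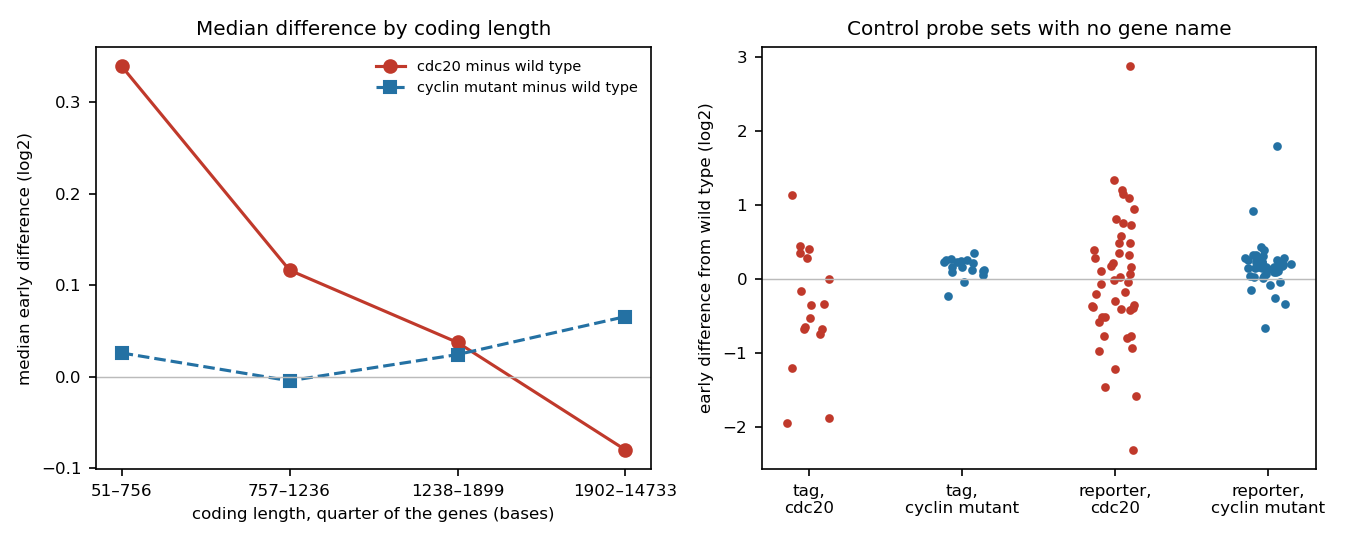
The left panel plots the median early difference from wild type (log2) for 4 groups of genes ordered by coding length in bases, and the right panel plots each tag and reporter control probe set's difference from wild type (log2), in cdc20 and in the cyclin mutant. In cdc20 the medians go from 0.34 to −0.08 with length, and the control probe sets span −2.31 to 2.87.

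The galactose and marker genes held some of the widest differences. GAL1, the galactokinase, read 12.86, 11.41 and 10.85 at 40, 60 and 80 min in the first cdc20 course and 13.05, 11.60 and 11.19 in the second. In wild type it read 9.37, 9.43 and 9.22 in the first course and 9.14, 9.21 and 9.01 in the second. All 6 cdc20 arrays lay above all 6 wild-type arrays, both cdc20 courses were highest at 40 min, and the difference was 2.60 ± 0.14 (adjusted p = 0.00019). GAL10, the epimerase transcribed from the same intergenic region, was higher by 1.93 ± 0.15 (adjusted p = 0.00042), also without overlap. GAL2, the galactose permease, was higher by 1.05 (adjusted p = 0.0086), and MTH1, a repressor of hexose transporter genes, by 0.94 (adjusted p = 0.0011). GCY1, a galactose-induced reductase, was higher by 0.48 (adjusted p = 0.044), with arrays that overlapped; without the first wild-type course its difference was 0.36 (adjusted p = 0.23), and at matched times 0.07 (adjusted p = 0.81). GAL2 without the second wild-type course was higher by 0.89 (adjusted p = 0.068).

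Other galactose genes went the opposite way or did not pass. GAL80, the repressor that binds Gal4, averaged 10.32 and 10.30 in the cdc20 courses, and its highest cdc20 array, 10.56, lay below every wild-type array (11.06 to 11.40). The difference was −0.98 ± 0.12 (adjusted p = 0.0010). GAL3, the galactose sensor, was lower by 0.67 on the log2 scale (value −0.67, adjusted p = 0.0051). GAL7, the transferase, differed by 0.30 (adjusted p = 0.17) and PGM2, a phosphoglucomutase, by −0.33 (adjusted p = 0.30). Of the 9 measured galactose genes, 5 were higher than in wild type, 2 lower and 2 not called, and without the second wild-type course 3 were higher. GAL7 without the first cdc20 course differed by 0.49 (adjusted p = 0.042). GAL4 was not analysed here.

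The cyclin mutant, which also carries a galactose-promoter construct, resembled cdc20 for part of these genes. Its GAL1 read 11.18, 11.21 and 11.10 in the first course and 11.30, 11.56 and 11.06 in the second, between the cdc20 arrays at 40 min and the wild type. The cdc20 courses exceeded it by 0.59 (adjusted p = 0.011) for GAL1. That difference was not called without the first array of each course (adjusted p = 0.88) or at matched times (adjusted p = 0.35). With single arrays and the course as a random block it was not called either (adjusted p = 0.12). The first cdc20 arrays were taken at 40 min and the first cyclin mutant arrays at 54 and 46 min. GAL10, GAL2 and MTH1 differed from the cyclin mutant by −0.04, −0.05 and 0.06, with adjusted p = 0.85, 0.88 and 0.67. GAL7 was 1.01 lower in cdc20 than in the cyclin mutant (difference −1.01, adjusted p = 0.0024), and GAL80 was also lower (−0.99, adjusted p = 0.00080). Over all genes, 2838 were called between cdc20 and the cyclin mutant (52.1%), with 1663 higher (30.5%) and 1175 lower (21.6%); this comparison shares the cdc20 arrays with the one against wild type.

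**Figure D3:**
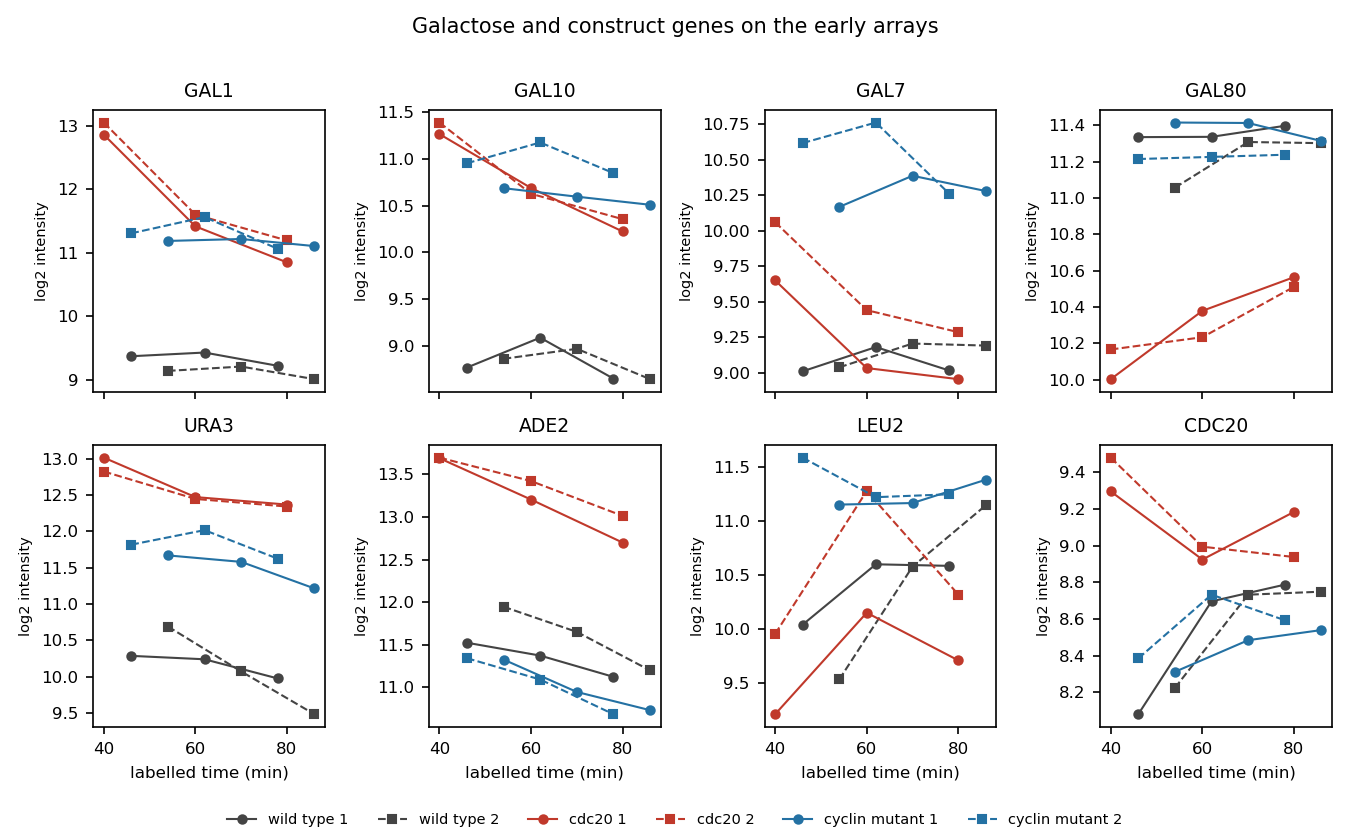
Log2 intensity on the y axes against the labelled time in minutes, for 4 galactose genes and 4 genes of the construct, with 1 line per course of 3 arrays (solid first, dashed second). GAL1, GAL10, URA3 and ADE2 lie higher in both cdc20 courses than in both wild-type courses, GAL80 lies lower, and LEU2 overlaps.

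Of the 5 genes that the construct touches, 3 were higher, 1 lower and 1 not called. URA3, the orotidine phosphate decarboxylase of uracil synthesis that marks CFP-TUB1, read 13.01, 12.47 and 12.37 and then 12.82, 12.45 and 12.34 in cdc20, against 9.48 to 10.69 in wild type. It did not overlap, and the difference was 2.45 ± 0.14 (adjusted p = 0.00020). Separate control probe sets along URA3 did not give 1 value: the 3′ set was higher by 2.49, the middle set by 2.17 and the 5′ set by 0.35. ADE2, a purine enzyme that marks the galactose-promoter CDC20, read 12.70 to 13.70 in cdc20 and 11.12 to 11.95 in wild type, and was higher by 1.82 ± 0.14 (adjusted p = 0.00038).

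CDC20 itself checks the labels only in part, since the native gene and the galactose-promoter copy were not told apart here. It read 9.30, 8.92 and 9.18 in the first cdc20 course and 9.48, 8.99 and 8.94 in the second. Wild type read 8.08, 8.70 and 8.79 and then 8.23, 8.73 and 8.75. CDC20 was thus higher in cdc20 by 0.59 ± 0.11 (adjusted p = 0.0047), with no overlap and the widest gap at the first arrays. Without the first array of each course it was 0.27 (adjusted p = 0.078). Tag control probe sets averaged up to 9.05 in wild type, so the wild-type CDC20 values were not shown to be above background. LEU2, the marker of the deletion, read 9.21, 10.15 and 9.71 in the first cdc20 course and 9.96, 11.28 and 10.32 in the second, and overlapped wild type (9.54 to 11.15). Its difference was −0.31 ± 0.24 (adjusted p = 0.32), and in the cyclin mutant, which carries LEU2 markers too, it was 11.15 to 11.59. Without the first cdc20 course the LEU2 difference was 0.10 (adjusted p = 0.56), and without the second −0.72 (adjusted p = 0.0049). TUB1, alpha-tubulin, was lower by 0.63 on the log2 scale (value −0.63, adjusted p = 0.030), with arrays that overlapped, and it was not called without the first (−0.59, adjusted p = 0.13) or the second (−0.67, adjusted p = 0.10) wild-type course or without the first cdc20 course (−0.39, adjusted p = 0.12).

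BAR1, the protease removed by bar1, averaged 7.28 in wild type and 6.63 in cdc20 and 10.5 in the cyclin mutant, whose label lists no bar1. The a-cell pheromone genes MFA1 and MFA2 were at 13.3 to 13.7 in all 3 groups. Of 5 alpha-cell markers measured, MF(ALPHA)2 (difference −1.38, adjusted p = 0.00048) and MF(ALPHA)1 (−1.13, adjusted p = 0.0013) were called lower in cdc20. Their means were 7.13 and 6.82 in cdc20 and 8.51 and 7.95 in wild type. Tag control probe sets averaged 6.11 to 8.31 in the cdc20 courses and up to 9.05 in wild type. Neither gene was thus shown to be above background in either strain. STE3, the a-factor receptor, stood at 7.16 in wild type and 7.12 in cdc20. Among 28 pheromone-response genes 10 were higher and 2 lower, with a median of 0.32; of all genes 31.3% were higher, so the share of 10 in 28 is near that of all genes. PRM5, a membrane protein induced by pheromone and cell-wall stress, was higher by 2.12 (adjusted p = 0.00048), PRM3, a nuclear-fusion protein, by 1.60 (adjusted p = 0.00074), and STE6, the a-factor exporter, by 0.81 (adjusted p = 0.0015). The covariate of TDH1's 3′ excess left 3 higher. The 10 higher became 3 when the last early array of each course was left out, 5 with each array centred on its median, 4 without the first wild-type course, 5 without the second and 6 without either cyclin mutant course.

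Outside the construct, the genes farthest above wild type were of mixed function. AQR1, a plasma-membrane exporter of amino acids and drugs, read 11.77, 13.01 and 12.13 and then 12.22, 13.36 and 12.78 in cdc20, against 8.35, 9.73 and 9.97 and then 9.28, 10.63 and 10.89 in wild type. The strains did not overlap, AQR1 was higher by 2.74 ± 0.33 (adjusted p = 0.00097), and the cyclin mutant averaged 9.01. UBC13, an E2 enzyme that builds lysine-63 ubiquitin chains, read 12.27 to 12.80 in cdc20 and 9.77 to 10.34 in wild type, a difference of 2.54 ± 0.14 (adjusted p = 0.00019). In the cyclin mutant UBC13 averaged 11.8, nearer to cdc20 than to wild type.

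The rest of the 12 highest were ADE17, PHO89, ARE2, YGR035C, PRM5, SPC1, YLR154C-H and VID24, besides GAL1 and URA3. ADE17, a late purine enzyme, was higher by 2.35 (adjusted p = 0.00043). PHO89, the sodium-phosphate cotransporter, was higher by 2.32 ± 0.60 (adjusted p = 0.015), with cdc20 courses that themselves differed, at means of 10.7 and 12.3; without the first wild-type course it was 2.02 (adjusted p = 0.10), and without the second 2.63 (adjusted p = 0.053). ARE2, a sterol acyltransferase, was higher by 2.26, SPC1, a signal peptidase subunit, by 2.05, and VID24, which marks gluconeogenic enzymes for degradation, by 2.00. YGR035C and YLR154C-H, without standard names, were higher by 2.18 and 2.04. The nearest measured neighbours of these 12 genes had a median difference of 0.42.

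YLR415C, an uncharacterised gene, was the farthest below. It read 4.52, 4.91 and 4.97 in the first cdc20 course and 5.02, 4.99 and 4.85 in the second, among the dimmest values of these arrays. Wild type read 9.87, 11.12 and 10.18 and then 10.21, 9.92 and 11.43, a difference of −5.58 ± 0.20 (adjusted p = 4.3e-05). YKR104W, also uncharacterised, was at 6.16 to 7.14 in cdc20 and 10.30 to 11.81 in wild type (difference −4.09 ± 0.17, adjusted p = 6.2e-05). PIG1, a candidate glycogen-targeting subunit of protein phosphatase 1, was at 6.28 to 7.01 against 9.46 to 10.41 (−3.08 ± 0.18, adjusted p = 0.00020), and STB3, a regulator of ribosome biogenesis genes, at 7.54 to 8.16 against 10.21 to 11.38 (−2.78 ± 0.18, adjusted p = 0.00022). None of these overlapped. No detection calls were given, and the tag control probe sets, which carry no gene name, averaged 6.11 to 8.31 in the cdc20 courses, so the cdc20 values of YLR415C, YKR104W, PIG1 and STB3 were not shown to be above background, and the sizes of these differences are those of the deposited values only. The cyclin mutant means of 10.4, 10.9, 9.75 and 10.7 lay near those of wild type.

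These genes also shared an array pattern that did not follow time. Among the 12 arrays of wild type and cyclin mutant, YLR415C was highest on 4: wild type at 62 min of the first course (11.12) and 86 min of the second (11.43), and the cyclin mutant at 86 min of the first course (11.35) and 46 min of the second (11.82). The same 4 arrays were the highest for 7 of the 12 lowest genes (YLR415C, YKR104W, PIG1, STB3, FRE5, PCT1 and REC114), for 187 of all 5449 genes (3.43%), and for 16 of the 63 tag and reporter control probe sets (25.4%). YLR415C, whose values picked the 4 arrays, is in the 7 and the 187 by construction. The pattern was found in these same data and was not tested in others. YKR104W, for example, read 11.62 to 12.46 on those 4 arrays and 9.67 to 10.59 on the other 8. One reporter probe set, chosen after its values were seen, read 9.47 to 10.40 on the 4 arrays, 7.76 to 8.55 on the other 8 and 5.94 to 6.67 on the cdc20 arrays. FRE5, related to ferric reductases, was lower by 2.53 on the log2 scale (−2.53), PCT1, an enzyme of phosphatidylcholine synthesis, by the same amount (−2.53), and REC114, a meiotic recombination protein, by 2.51 (−2.51), and the cdc20 values of FRE5 and REC114 (5.33 to 6.72) were likewise not shown to be above background. The neighbours of the 12 lowest genes had a median difference of −0.02, and those of YLR415C, PUN1 and VPS36, differed by 0.67 and −0.01.

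The other 5 of the 12 lowest did not have this array pattern. BAT1, the mitochondrial branched-chain aminotransferase, read 9.64, 11.13 and 10.65 and then 9.76, 11.58 and 11.08 in cdc20, against 12.37 to 13.42 in wild type, a difference of −2.41 ± 0.14 (adjusted p = 0.00020). FIT2, a wall mannoprotein that holds iron siderophores, was at 8.52 to 8.76 in the first cdc20 course and 9.80 to 10.32 in the second, below wild type at 11.09 to 13.38 (difference −2.97 ± 0.55, adjusted p = 0.0040). CCR4, the main mRNA deadenylase, was lower by 2.42 (−2.42, adjusted p = 0.00048). YLR162W differed by −3.06, and YBL005W-A, a Ty element gene with near-identical copies elsewhere in the genome, by −2.81 ± 0.73 (adjusted p = 0.016), which was not called without the first (adjusted p = 0.080) or second (adjusted p = 0.078) wild-type course or without the second cdc20 course (adjusted p = 0.052). YLR162W read 5.72 to 7.15 in cdc20, within or below the tag control averages of 6.11 to 8.31 there. It was therefore not shown to be above background in cdc20. YBL005W-A, at 7.39 to 8.91 in cdc20, lay partly in that range. With TDH1's 3′ excess as a covariate FIT2 differed by −1.62 (adjusted p = 0.093).

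Of 12 leucine and branched-chain genes, 10 were lower and 1 higher, with a median of −0.93. Besides BAT1 they included BAT2, the cytosolic aminotransferase (−1.75, adjusted p = 0.00048), ILV1, threonine deaminase (−1.37, adjusted p = 0.0021), and LEU4, the first enzyme of leucine synthesis (−1.32, adjusted p = 0.027). For LEU4 the cdc20 courses were apart, at 10.8 and 12.3, and it was not called without the first (adjusted p = 0.12) or second (adjusted p = 0.10) wild-type course. Of 20 purine genes, 10 were higher and 4 lower, with a median of 0.45. Next to ADE17 and ADE2, ADE1 was higher by 1.47 (adjusted p = 0.0014) and ADE12, adenylosuccinate synthase, by 1.16 (adjusted p = 0.00053), while ADE3, a folate enzyme, read 10.68 to 11.35 in cdc20 and 12.53 to 12.81 in wild type (−1.59, adjusted p = 0.00067). The 10 higher purine genes became 6 without the first wild-type course. With TDH1's 3′ excess as a covariate 4 branched-chain genes were lower and none higher, LEU4 differed by −0.12 (adjusted p = 0.81), and 5 purine genes were higher and 2 lower.

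Uracil, amino acid and sulfur genes were mixed, and the shares of sulfur genes called were near the 31.3% and 21.0% of all genes. Of 13 pyrimidine genes, which leave out the marker URA3, 2 were higher, 3 lower and 8 not called: URA10 was higher by 1.18 and URA2, the first enzyme of the pathway, lower (−0.81). Of 38 other amino acid genes, 5 were higher and 17 lower, with a median of −0.26. ASN2, an asparagine synthetase, differed by −1.38 (adjusted p = 0.00048) and ARG1, argininosuccinate synthetase, by −1.15 (adjusted p = 0.026), whereas HIS4 and SER3 were higher by 1.13 and 1.12. ARG1 was not called without the first wild-type course (−0.85, adjusted p = 0.16) or the first cdc20 course (−0.65, adjusted p = 0.094). Without either wild-type course 10 of the 38 were lower, and 8 with the TDH1 covariate. Of 26 sulfur genes, 8 were higher and 6 lower, among them CYS3, cystathionine gamma-lyase (−1.55), and MUP3, a methionine permease (1.26), and the 8 became 5 without the second wild-type course. Without that course 1 pyrimidine gene was lower.

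Iron uptake genes were mostly lower. Of 25 measured, 13 were lower and 1 higher, with a median of −0.85. ARN1, a siderophore transporter, differed by −2.29 (adjusted p = 0.0060) and FTR1, the high-affinity iron permease, by −1.31 (adjusted p = 0.0094), besides FIT2 and FRE5. The cdc20 courses were unequal for these genes: ARN1 averaged 9.38 in the first and 11.05 in the second. FTR1 was not called without the first (adjusted p = 0.060) or second (adjusted p = 0.053) wild-type course, nor ARN1 without the second (adjusted p = 0.051). The 13 became 8 without the first wild-type course, 6 without the second, and 2 with TDH1's 3′ excess as a covariate. Of 18 phosphate genes 4 were higher, including PHO89 and PHM6, a gene of phosphate starvation (1.27), and 2 lower; without the first wild-type course 2 were higher, and without the second none was lower.

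STL1, the glycerol-proton symporter, read 13.03, 9.21 and 8.52 in the first cdc20 course and 13.92, 10.50 and 8.99 in the second, against 9.48, 8.13 and 7.83 and then 10.61, 9.12 and 8.06 in wild type. The arrays overlapped, and the difference of 1.82 ± 0.33 (adjusted p = 0.0038) became 1.02 (adjusted p = 0.024) without the first array of each course and 0.85 (adjusted p = 0.15) with courses interpolated at matched times. The first cdc20 arrays were taken at 40 min and the first wild-type arrays at 46 and 54 min, and STL1 was highest on the first array of every one of these courses. GPD1, which makes glycerol phosphate, was higher by 1.18 ± 0.39 (adjusted p = 0.038), but by 0.49 (adjusted p = 0.12) without the first wild-type course, with adjusted p = 0.059 and 0.10 without the first and second cdc20 course. Of 17 osmotic and glycerol genes, 8 were higher and 5 lower, with GUT1, glycerol kinase, at −1.21 and the water channel gene AQY2 at −1.09. The 8 became 1 without the first wild-type course, 5 without the second, 5 and 3 without the first and second cdc20 course, 3 at matched times, and 2 with the TDH1 covariate, where 1 was lower. The 5 became 3 without the second wild-type course, where AQY2 was not called (−0.80, adjusted p = 0.16), nor without the first cdc20 course (−0.61, adjusted p = 0.087).

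Carbon genes divided, with more calls lower than higher. HXK2, the hexokinase that also takes part in glucose repression, differed by −1.34 (adjusted p = 0.00048), and HXT5, a transporter of slow-growing cells, by 1.10; of 15 hexose transporter and sensor genes 2 were higher and 4 lower. HXT5 was not called without the first (adjusted p = 0.081) or second (adjusted p = 0.089) wild-type course, and without the first array of each course it was 0.33 (adjusted p = 0.25). Among 20 glucose-repressed genes 3 were higher and 6 lower, including FBP1, a gluconeogenic enzyme (−1.56), and ADR1, an activator of such genes (−1.15). Among 45 respiration genes 18 were lower and 5 higher, with NDI1, the internal NADH dehydrogenase (−1.38), FUM1, fumarase (−1.35), and CIT1, citrate synthase (−1.34). Of 19 trehalose and glycogen genes 7 were lower and 4 higher, and TPS1, trehalose phosphate synthase, differed by −1.53. Of 18 glycolytic genes 6 were lower and none higher by limma, 8 at an unadjusted p under 0.05, with PDC5, a pyruvate decarboxylase, at −1.43. The 5 higher respiration genes became 1 and 2 without the first and second wild-type course, 3 without either cyclin mutant course, 3 without the first cdc20 course and 11 without the second. The 7 lower trehalose and glycogen genes became 4 without the first wild-type course and 11 without the second cdc20 course. The 2 higher hexose genes became none without either wild-type course, 5 without the first cdc20 course and 1 without the second; the 3 higher glucose-repressed genes became 1 without the second wild-type course and 5 without the first cdc20 course. Centring arrays on their median gave 12 lower glycolytic genes. With the TDH1 covariate 9 respiration, 3 trehalose and glycogen, 2 glucose-repressed and 2 glycolytic genes were lower.

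Of 26 heat shock genes, 12 were lower and 2 higher, with a median of −0.39. SSC1, the mitochondrial Hsp70, read 10.90 to 11.16 in cdc20 and 12.16 to 12.76 in wild type, without overlap (−1.52 ± 0.12, adjusted p = 0.00043). SSA1, HSP60 and HSP82 differed by −1.41, −1.40 and −1.30. The covariate of TDH1's 3′ excess left 8 lower. Of 32 general stress genes of other kinds 2 were higher, 2 lower and 28 not called, but this count moved with the setting: 10 were lower at matched times, 6 with arrays centred on their median or without the first arrays, and 9 were higher and none lower with the TDH1 covariate. Without the second cdc20 course 8 stress genes were lower, and without the first 5 were higher. Of 34 proteasome genes 6 were higher and 6 lower, with PRE8 lowest (−0.78). The 6 higher became none without the first wild-type or the first cdc20 course, 1 without the second wild-type course and 10 without the second cdc20 course, and the 6 lower became 3 without the second wild-type course.

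Among genes of protein synthesis, call counts differed between the mitochondrial and the cytosolic ribosome lists. The lists also differed in level. In the wild-type courses the mitochondrial list averaged 9.98 and 9.95 and the cytosolic list 14.24 and 14.25. The part of signal level in this contrast was not tested. Of 42 mitochondrial ribosome genes, 22 were higher and 5 lower, with a median of 0.47, against 31.3% and 21.0% of all genes. With TDH1's 3′ excess as a covariate 5 were higher and 1 lower. RSM27 read 11.58 to 12.07 in cdc20 and 10.16 to 10.74 in wild type (1.50 ± 0.16, adjusted p = 0.00073), and MRP2, MRP49 and MRPL24 were higher by 1.20, 1.13 and 1.02. The median coding length of this list was 784.5 bases, among the shorter lists, and with a smooth trend on coding length removed 16 were higher and the median was 0.22; without the second wild-type course 12 were higher and 2 lower, and MRPL24 was not called (0.84, adjusted p = 0.071). The 5 lower became 3 without the first wild-type course and 2 without the first cdc20 course. None of the 33 cytosolic ribosomal protein genes was higher and 1 was lower, RPS0A (−0.43, adjusted p = 0.015), which was not called without the first (adjusted p = 0.060) or second (adjusted p = 0.078) wild-type course; at an unadjusted p under 0.05, none was higher and 2 lower. With the trend on coding length removed 15 of the 33 were lower. Of 50 ribosome biogenesis genes 14 were higher and 5 lower, among them IPI1 (0.93) and NOP12 (0.78), shares no larger than the 31.3% and 21.0% of all genes. With TDH1's 3′ excess as a covariate none was higher (adjusted p = 0.054 for IPI1 and 0.057 for NOP12), and the 14 became 6 with arrays centred on the median, 5 without the first wild-type course, 6 without the second and 6 without the first cdc20 course. Of 27 RNA polymerase I and III genes 11 were higher, such as RPC17 (0.99), and 5 lower, such as RRN5 (−1.18); with the covariate 4 were higher. The 11 became 6 and 7 without the first and second wild-type course and 7 without the first cdc20 course, and the 5 lower became 2 without either wild-type course and 3 without either cyclin mutant course or the second cdc20 course.

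**Figure D4:**
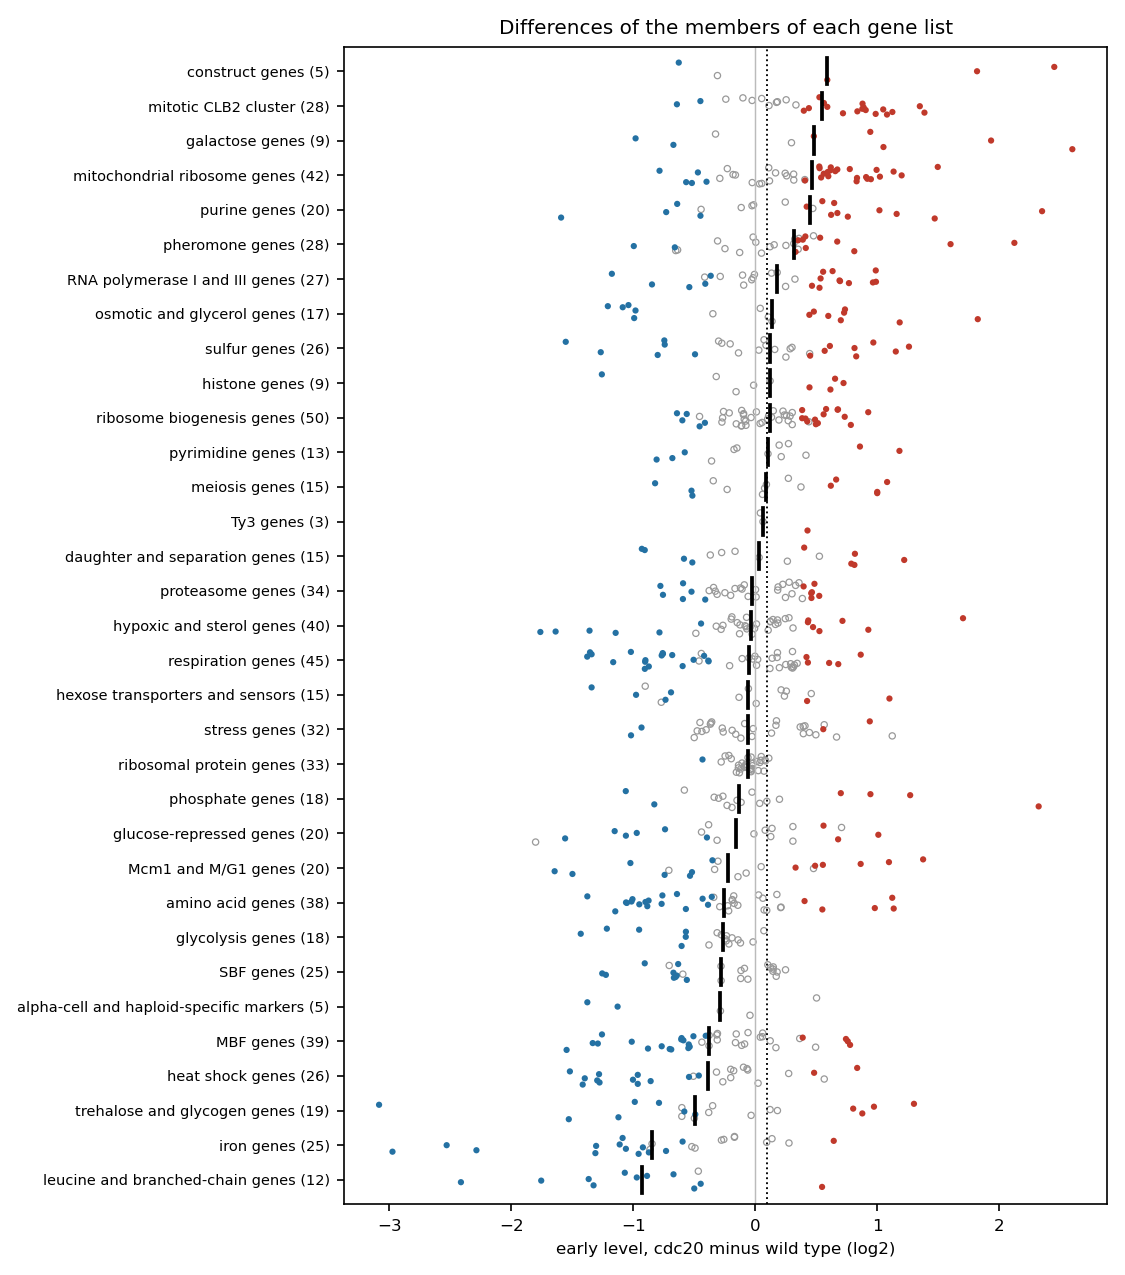
Each row is a gene list with the number of measured members in brackets, and each point is a member's early difference, cdc20 minus wild type, on the log2 scale; filled points were called (red higher, blue lower), open points were not, black bars are list medians and the dotted line is the median of all genes. The list medians run from −0.93 for the branched-chain genes to 0.59 for the 5 construct genes.

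Genes of the passage from G1 to S phase also differed at the labelled times. The cdc20 arrays had a mean time of 60 min, and the wild-type courses 62 and 70 min. G1 to S genes are switched on by the factors SBF and MBF, and they were climbing in both strains. RNR1, the large subunit of ribonucleotide reductase and an MBF target, read 8.84, 9.95 and 11.86 and then 8.43, 10.29 and 11.86 in cdc20, against 9.72, 11.90 and 13.48 in the first wild-type course and 12.06 and 13.34 on the last 2 arrays of the second. Every cdc20 array was below the wild-type array of the same rank, although the ranges overlapped, and the difference was −1.55 ± 0.12 (adjusted p = 0.00042). Interpolated at the matched times of 54, 62, 70 and 78 min it was −1.17 (adjusted p = 0.015).

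MBF and SBF genes were mostly lower where they were called. Of 39 MBF genes 17 were lower and 4 higher, with a median of −0.38, and CDC21, thymidylate synthase (−1.33), CDC9, DNA ligase (−1.29), and ASF1, a histone chaperone (−1.26), followed RNR1. Of 25 SBF genes 9 were lower and none higher by limma (10 and none at an unadjusted p under 0.05), with YOX1, a homeodomain repressor (−1.25), and TOS4, a forkhead-associated protein (−1.22), among them. At matched times the lower calls were 11 for MBF and 2 for SBF genes, and YOX1 was not called (adjusted p = 0.060). With single arrays and the course as a random block, 5 MBF and 3 SBF genes were lower, and neither RNR1 (adjusted p = 0.14) nor YOX1 (adjusted p = 0.22) was called. The MBF count was 10 without the second wild-type course, and the SBF count 4 without the last arrays, 5 without the first wild-type course, 4 without the second and 5 without the first cdc20 course. MCM7, a subunit of the replicative helicase, read 8.62, 9.72 and 10.70 and then 8.92, 9.27 and 10.82 in cdc20, against 10.34 to 11.96 in wild type, a difference of −1.64 ± 0.14 (adjusted p = 0.00048); at matched times it was −1.48 (adjusted p = 0.0011). MCM4 was also lower (−1.50). In the list of Mcm1 and M/G1 genes, 7 of 20 were lower and 6 higher, with SPO12, a mitotic exit activator, higher by 1.38. The 7 became 4 without either wild-type course, and the 6 became 3 without the second.

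Only 4 genes (0.0734%) changed at a different rate across the window, by the slope over each course's 3 arrays, while 435 had an unadjusted p under 0.05. All 4 climbed less steeply in cdc20. The slopes cover unlike windows, 40 to 80 min in cdc20 and 46 to 78 or 54 to 86 min in wild type. Slopes at matched times were not tested. CLN2, a G1 cyclin, read 7.93, 8.09 and 9.45 and then 7.75, 8.11 and 9.32 in cdc20, against 7.36, 8.46 and 10.67 and then 7.68, 8.79 and 11.06 in wild type. Its slope was 0.76 and 0.79 per 20 min in the cdc20 courses and 2.07 and 2.11 in the wild-type courses (difference −1.32 ± 0.09, adjusted p = 0.040). YOX1 (−1.49), the uncharacterised YBR071W (−1.09) and CLN1, the other G1 cyclin of the pair (−1.04), had the same adjusted p. None of the 4 was called when either wild-type course or either cdc20 course was left out, nor with arrays centred on their medians (adjusted p = 0.057); counts over all genes were then 0, with 241, 260, 263 and 201 at an unadjusted p under 0.05 without the first and second wild-type and the first and second cdc20 course. With the replicate number as a block none was called either (adjusted p = 0.24 for each of the 4). The lower CLN2 readings lay within the tag control averages, which reached 8.31 in cdc20 and 9.05 in wild type. They were not shown to be above background.

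**Figure D5:**
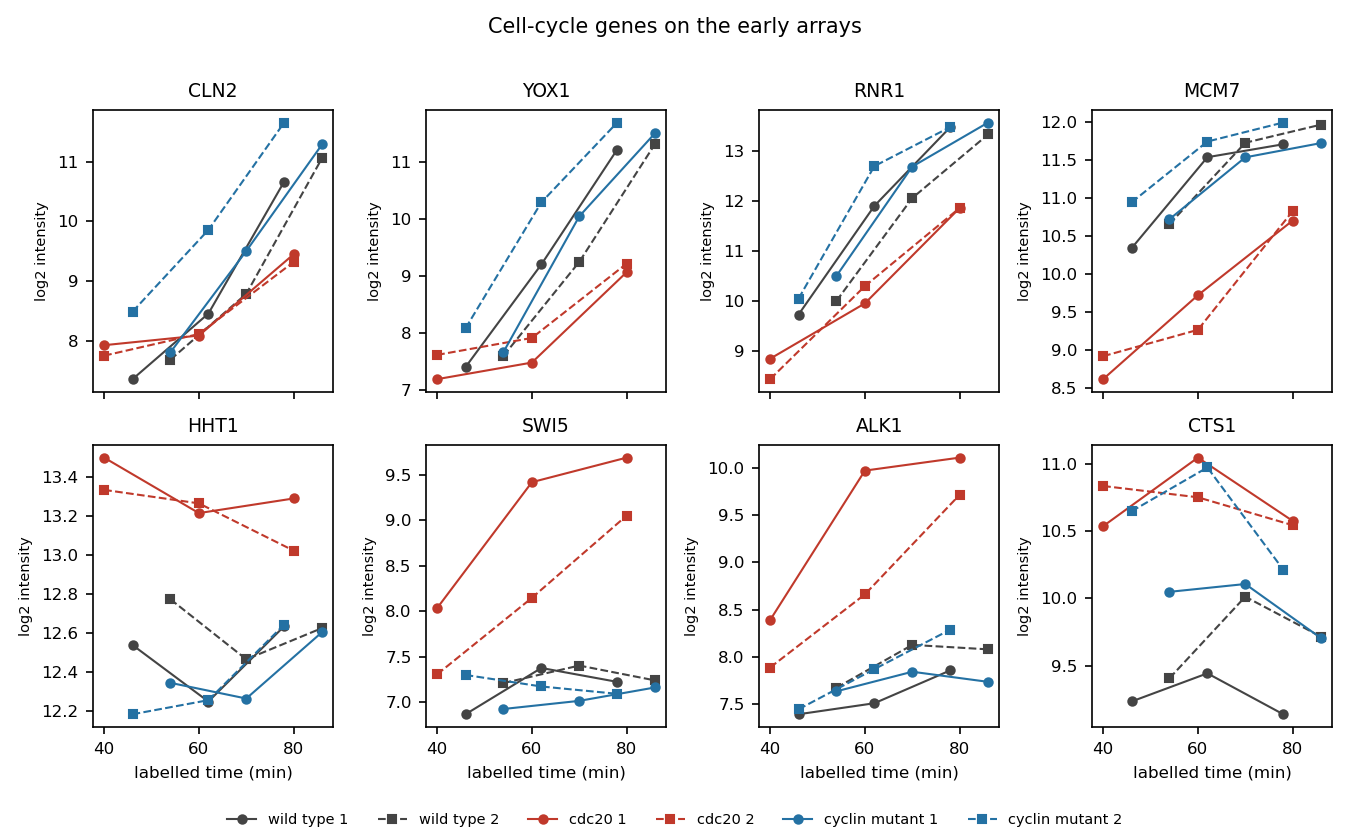
Log2 intensity against the labelled time in minutes for 8 cell-cycle genes, with 1 line per course of 3 arrays (solid first, dashed second) in cdc20, wild type and cyclin mutant. CLN2, YOX1, RNR1 and MCM7 end lower in cdc20 than in wild type, SWI5 and ALK1 climb in both cdc20 courses and stay near 7 to 8 in wild type, and HHT1 and CTS1 are higher in cdc20 from the first array.

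Mitotic genes were already higher in cdc20, at arrays where the G1 to S genes were lower. Whether all cdc20 cells were still before mitosis on these arrays was not tested. SWI5, the transcription factor of late mitosis, read 8.04, 9.42 and 9.69 in the first cdc20 course and 7.31, 8.15 and 9.05 in the second, against 6.87 to 7.41 in wild type. The lowest cdc20 array overlapped wild type and the others did not, and the difference was 1.39 ± 0.26 (adjusted p = 0.0042). ALK1, a haspin-like kinase, read 8.39, 9.97 and 10.11 and then 7.89, 8.66 and 9.71 in cdc20, against 7.39 to 8.13 (1.35 ± 0.24, adjusted p = 0.0037). With TDH1's 3′ excess as a covariate SWI5 was higher by 0.75 (adjusted p = 0.10) and ALK1 by 0.82 (adjusted p = 0.090). Tag control probe sets averaged up to 9.05 in wild type. The wild-type values of SWI5 and ALK1 were thus not shown to be above background. Nor were the wild-type means of CLB1 (7.61), CLB2 (7.62) and CDC5 (8.88), which limits what these fold sizes mean. Of the 28 measured genes of the mitotic CLB2 cluster, 17 were higher and 2 lower, with a median of 0.54, and all 4 markers of mitosis (CLB1, CLB2, CDC5 and SWI5) were higher, by 0.72 to 1.39. BUD4, a bud-site protein, was higher by 1.12. The 17 became 10 without the first wild-type course, 11 without the last array of each course, and 9 with TDH1's 3′ excess as a covariate. With the dimmest genes left out, 7 members were called higher. That setting removes dim members such as SWI5, ALK1 and BUD4 from the test, so a lower count is partly built in. Many of the higher calls thus came from dim genes.

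Genes of cells that have just divided and of S phase were mixed. CTS1, the chitinase of cell separation, read 10.54 to 11.04 in cdc20 and 9.14 to 10.01 in wild type, without overlap (1.22 ± 0.23, adjusted p = 0.0045). Of 15 daughter and separation genes 5 were higher and 4 lower, against 31.3% and 21.0% of all genes. DSE1 and DSE2 were higher by 0.81 and 0.79 and PRY3 was lower (−0.93). The wild-type means of DSE1 and DSE2 were 7.17 and 8.37. With tag control averages of up to 9.05 in wild type, they were not shown to be above background. Of 9 histone genes 4 were higher, including HHT1 (0.72) and HHF1 (0.65), and the linker histone HHO1 was lower (−1.26). With the trend on coding length removed, 1 histone gene was higher and 4 were lower, and without the first wild-type or the first cdc20 course 2 were higher, HHF1 not among them (adjusted p = 0.093 and 0.053). Without the first wild-type course 2 daughter and separation genes were higher. Fewer cells in a phase and less RNA per cell cannot be told apart in such bulk samples.

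Of 15 meiosis genes, which vegetative haploids should not use, 5 were higher and 3 lower, shares near the 31.3% and 21.0% of all genes. SPO11, NDT80 and DIT1 were higher by 1.00, 1.00 and 1.08, at means of 8.29, 9.26 and 7.97 in cdc20. The tag control probe sets averaged 6.11 to 8.31 in the cdc20 courses, so SPO11 and DIT1 were not shown to be above background. Of 40 hypoxic and sterol genes 7 were higher and 6 lower, with CYC7, a second cytochrome c, higher by 1.70, and ANB1, the hypoxic form of eIF5A, and TIR4, a wall mannoprotein, lower (−1.64 and −1.76). Of 3 Ty3 genes 1 was higher, YGR109W-A (0.43, adjusted p = 0.031), which was not called without the second wild-type course (adjusted p = 0.19), the second cdc20 course (adjusted p = 0.085) or either cyclin mutant course (adjusted p = 0.051). Meiosis genes were 3 higher without the second wild-type course, and 1, 1 and 1 lower without the first and second wild-type and the first cdc20 course, and 5 lower without the second cdc20 course. The 7 higher hypoxic genes became 2 and 1 without the first and second wild-type course, 11 without the first cdc20 course and 3 without the second, and the 6 lower became 10 without the second cdc20 course.

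The change from the early window to the later arrays (100 to 262 min) differed between the strains for 1511 genes (27.7%), of which 798 went up more in cdc20 (14.6%) and 713 less (13.1%). This measure shares the early arrays with the comparison above, so a gene that was high early is set to fall in it. Among the 15 daughter and separation genes, 13 rose less in cdc20: CTS1 rose by 2.89 and 2.19 in the wild-type courses and changed by −1.07 and −0.97 in the cdc20 courses. Of 39 MBF genes 17 rose more in cdc20, of 9 histone genes 7 rose less, and MCM7 changed by 1.33 and 1.59 in cdc20 and by 0.01 and 0.03 in wild type. The count of 1511 was 391 without the first wild-type course, 900 without the second, 535 and 617 without the first and second cdc20 course, and 15 with TDH1's 3′ excess as a covariate.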

How the data were processed

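Transcript levels were measured on single-colour Affymetrix yeast arrays, per the labels. The authors deposited 1 processed linear intensity per probe set and array; the affy package is named in the submitters' processing notes, with no version or summary method stated there. No detection calls were used. The second wild-type course was moved up by 1 row before use. Of 5900 probe sets, 184 were controls, 5498 had 1 gene name and 218 none; genes with several probe sets (47) were represented by the probe set with the highest mean log2 over the arrays used. Intensities ranged from 22.2 to 35171, with array medians from 1056 to 1362, and their number, 3 arrays in each of 2 courses per group, limits the precision. Values were taken as log2 with a pseudocount of 0 and averaged per course.

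Courses of wild type, cyclin mutant and cdc20 were fitted together (limma 3.58.1 in R 4.3.3, 3 residual degrees of freedom). Tested on simulated data for the level of cdc20 minus wild type, the fit called 12 of 50 genes changed by 0.5, 37 of 50 by 1 and 46 of 50 by 2 on the log2 scale, and 5 of 5249 unchanged genes. Named genes were the 12 highest and 12 lowest called genes without overlap of arrays, all construct and galactose genes, up to 4 called members per list by size, and the slope genes. CLB2, CDC5, DSE1, DSE2 and the other cell-type markers come from a marker list; GAL-related, cell-cycle and metabolic lists (33) and the members were chosen with earlier results of these data known. Coding lengths came from RefSeq (assembly R64). Alternatives changed the time window, scaling, pseudocount, filter, covariate, block and courses; the length trend was added after seeing the data.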

Additional observations from a re-analysis of the deposited data

Results flagged for a closer look

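In 4 genes the slope over the early window differed between the strains by its own test in limma (adjusted p = 0.040): YOX1 by −1.49, CLN2 by −1.32, YBR071W by −1.09 and CLN1 by −1.04 log2 per 20 min, cdc20 minus wild type. Both cdc20 courses were less steep than both wild-type courses in each of them. The courses were sampled over unlike windows, and slopes at matched times were not tested. By limma, the CLN2 level at matched times was not called (adjusted p = 0.48). None of the 4 was called with the replicate number as a block (adjusted p = 0.24), or without either wild-type or either cdc20 course.

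The change from early to later arrays differed between the strains for 1511 genes by the test of that difference, and for 15 with TDH1's 3′ excess as a covariate. This change subtracts the early values, and the genes named were partly chosen for extreme early differences, so an opposite sign is built in and the values are a description. Among the construct, galactose and most extreme genes, 8 are given here. FIT2 differed by 2.81 (adjusted p = 0.016), with changes of 0.41 and −0.48 in the cdc20 courses and of −2.05 and −3.65 in wild type. AQR1 differed by −2.02, PHO89 by −1.50, GAL1 by −1.50, ADE17 by −1.41 and ADE2 by −1.09. CCR4 differed by 1.51, rising by 1.62 and 1.40 in cdc20 with −0.06 and 0.06 in wild type. CDC20 differed by −1.28: it rose by 1.25 and 1.06 in wild type and changed by −0.20 and −0.05 in cdc20.

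Outside the measured genes, 1 reporter control probe set was higher in cdc20 than in wild type by 2.87, and higher in the cyclin mutant than in wild type by 1.79; it names no yeast gene.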

How the results depend on the processing

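Of the 147 named genes' early differences, 147 kept direction and side of the threshold with the replicate block and 146 with the 4 courses of cdc20 and wild type only, 142 with the trend on coding length removed, and 100 with TDH1's 3′ excess as a covariate, which weakened 44. With the deposited row order of the second wild-type course, 0 genes were called for the early level against wild type (419 at an unadjusted p under 0.05) and 0 against the cyclin mutant (243), 0 at 2-fold in either, 0 for the slope (195) and 339 for later minus early; single genes were not recomputed there, since their rows hold other probe sets. With the TDH1 covariate, calls were 1259 against wild type and 1135 against the cyclin mutant. The slope then had 0 calls (387 at an unadjusted p under 0.05) and later minus early 15, all 15 at 2-fold. This covariate overlapped with the strain, so lost calls do not separate the measure from the strain. Requiring 2-fold left 611, 675 and 142 calls in the level against wild type, against the cyclin mutant and later minus early, and 291 of the last with the window from 180 min. Leaving out a course gave 1705 to 2769 calls against wild type, 391 to 1594 for later minus early and 0 to 6 for the slope. The slope had 0 calls with the replicate block (368), median centring (427) or the dimmest genes left out (362), 1 with quantile normalization and 6 with 4 courses only.

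The replicate numbers did not pair the courses: deviations of same-numbered courses correlated at −0.07, −0.06 and 0.08, and the block gave 2681 calls against wild type in place of 2851. Apart from the slope, it moved no count of calls over all genes by more than 1.5 times.

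Among the named genes, signs turned for values that were not called, and for FIT2 against the cyclin mutant, called at −1.53 (adjusted p = 0.049). Of all 2851 genes called against wild type, 1 turned sign with the TDH1 covariate and 2 without the first arrays. Leaving out the last arrays turned 1, and matched times turned 1. Against wild type, LEU2 was 0.39 with the TDH1 covariate and −0.72 to 0.10 with a course left out, PGM2 0.25 with the covariate, and CLN1 0.10 without the last arrays. Against the cyclin mutant, the covariate gave FIT2 0.10, TUB1 0.35, GAL2 0.59, GAL10 0.23 and PGM2 0.57; leaving out the last arrays gave TUB1 0.079, GAL2 0.035, GAL10 0.14 and MTH1 −0.051. Leaving out a course gave GAL2 −0.38 to 0.29, GAL10 −0.23 to 0.16, PGM2 −0.43 to 0.18 and MTH1 −0.025 to 0.15. Removing the length trend gave GAL2 0.0054 and GAL10 0.055, and median centring MTH1 −0.055. The causes were not tested.

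With 2 courses a group, a lone course was assumed to vary like the others. Values near the lowest intensities had no detection call, which limits what their fold sizes mean. Examples are YLR415C, YKR104W, PIG1, YLR162W, FRE5 and REC114 in cdc20, and SWI5 in wild type.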
